A study of Mus musculus with 15 samples.

Results

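The regions described here are 385 sites bound by both RevErbalpha and RevErbbeta that carry the histone marks of an enhancer, lie in the authors' genic class, and sit at most 30 kb from the start of the nearest expressed gene. They were taken from the authors' table of 1544 common peaks by its class column and its distance column alone. Within that table, no value of binding or transcription chose them. The table itself holds only peaks bound by both proteins, and its distances are to expressed genes. The 385 sites are 24.9% of all common peaks and 56.0% of the 687 genic enhancer peaks. The authors assigned them to 353 gene IDs with 350 gene names.

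RevErbalpha (gene Nr1d1) and RevErbbeta (gene Nr1d2) are nuclear receptors of the circadian clock that lack the helix with which other receptors recruit coactivators, and they repress transcription through the corepressor NCoR and histone deacetylase. Enhancers are stretches of DNA that raise the transcription of a gene from a distance, and active ones are transcribed into short enhancer RNAs. In macrophages many enhancers are laid out by the lineage factor PU.1, and the study asked how RevErbs act on transcription from such sites. Inside a gene, an enhancer shares its DNA with the gene's own primary transcript, so signal of nascent RNA at a genic site can come from either.

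Binding was measured in RAW cells, a mouse macrophage line whose background is given as C57Bl6. The cells expressed RevErbalpha or RevErbbeta with a biotin tag, pulled down on streptavidin beads. A library of control RAW cells labelled BirA, the biotin ligase, was the background; its column is named BirA-input. Nascent RNA 5' ends were read by 5'GRO-seq in control RAW cells labelled BTEV-Ctrl and in RAW cells expressing biotin-tagged RevErbalpha. Nascent RNA along its length was read by GRO-seq in bone marrow derived macrophages, C57Bl6, with floxed alleles of both RevErb genes (labelled WT) and with the same floxed alleles plus Tie2-Cre (labelled DKO), kept in 10 ng/mL M-CSF once differentiated. Both genotypes therefore carry the floxed alleles, and Tie2-Cre is active in blood and endothelial cells and not in macrophages alone. Each group has 1 sample in the labels, and 7 of the 15 samples have values here. Differences between conditions are therefore given without a p-value and have no labelled replicate behind them. The tables hold 3 ChIP-seq runs per RevErb and 2 gene-level GRO-seq runs per genotype, which are shown as runs of 1 sample. Whether these are repeat runs or separate cultures is not stated. The table's command line names untreated and treated RevErbalpha libraries, and which run is which could not be read from the columns.

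Some facts of the whole series bear on what follows. Totals were 598490 to 5276592 tags in the RevErb runs, 10548880 in BirA, 18708148 and 7238710 in the control and tagged 5'GRO-seq libraries, and 34852907 to 46649008 in the gene-level GRO-seq runs. The median of the 385 sites held about 90.3 tags in the control 5'GRO-seq library and 25 with tagged RevErbalpha, and 3.3 to 44.0 tags in the single RevErb runs. Nr1d1, which has no site among the 385, gave whole-gene values of 7.91 and 7.48 for WT and 9.44 and 9.56 for DKO. That value does not show whether the floxed part was removed, so the library is called "labelled DKO" below. Of 10 macrophage markers 4 have a common peak and hence a gene value, and none of the T and B lymphocyte, neutrophil, erythroid or fibroblast markers do, because the table lists only expressed genes near peaks. Vwf, an endothelial marker assigned a site among the 385, read 9.54 and 9.70 for WT and 9.72 and 9.92 for DKO, and the part of endothelial cells in any result was not tested.

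The sites lay mostly downstream of the start of their assigned gene. Of the 385, 293 were downstream and 92 (23.9%) upstream, with median distances of 10953 and 9416 bp. The share upstream went with the class: among intergenic enhancer peaks within 30 kb, 209 of 264 (79.2%) were upstream, and among genic peaks beyond 30 kb 84 of 302 (27.8%). An upstream site of the genic class can lie in another gene or downstream of an alternative start. Arhgap25 has 2 starts 36932 bp apart in RefSeq, and its site lies 3728 bp upstream of the start the authors used. The share of sites whose gene has several RefSeq starts was 18 of 70 for upstream and 61 of 236 for downstream sites with an entry. The nearest site was 1057 bp from a start. Just inside the limit were sites of Klf13 (29968 bp), Fam82b (29653 bp) and Sgms1 (29577 bp), with 5'GRO-seq differences of 0.05, 0.55 and -0.12. Just outside were sites of Pcdhgc5 (30067 bp), Rapgef6 (-30106 bp) and Cc2d2a (30294 bp), with -1.31, -2.61 and 0.59. The 385 sites were on 19 chromosomes, most often on chromosome 7 (43 sites), and 140 of them (36.4%) had another common peak within 50 kb, against 35.4% of all common peaks.

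A genome of build mm9, on which the peaks were placed, was not used here, so the peak sequences are not shown. Promoters are shown instead for the 3 genes whose own signal and whose site were both higher in the library labelled DKO, above the lower quartile of gene signal. Each is the 250 bases before a RefSeq start, on the minus strand of build GRCm38.p6, and capitals mark GAGGAA or its reverse complement TTCCTC, the core of the PU.1 motif. Cx3cr1 (chr9:120068297-120068546) has no capitals, Arhgap25 has a first start (chr6:87533260-87533509) and a second start (chr6:87496328-87496577), and Slc7a8 (chr14:54781887-54782136) has 1 match.
Cx3cr1: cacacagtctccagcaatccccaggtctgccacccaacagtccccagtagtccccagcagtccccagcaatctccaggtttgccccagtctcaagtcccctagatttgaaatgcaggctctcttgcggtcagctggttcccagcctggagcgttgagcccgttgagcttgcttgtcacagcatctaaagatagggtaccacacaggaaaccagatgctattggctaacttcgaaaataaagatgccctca
Arhgap25, first start: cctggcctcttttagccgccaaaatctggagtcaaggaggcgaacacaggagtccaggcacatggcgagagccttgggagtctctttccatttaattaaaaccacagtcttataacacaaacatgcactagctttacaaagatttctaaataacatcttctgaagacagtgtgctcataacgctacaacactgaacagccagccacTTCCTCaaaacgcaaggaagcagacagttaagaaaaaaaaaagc
Arhgap25, second start: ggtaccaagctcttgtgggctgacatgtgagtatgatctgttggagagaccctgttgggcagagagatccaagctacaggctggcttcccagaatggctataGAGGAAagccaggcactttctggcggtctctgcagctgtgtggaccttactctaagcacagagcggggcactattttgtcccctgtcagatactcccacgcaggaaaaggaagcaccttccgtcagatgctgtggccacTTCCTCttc
Slc7a8: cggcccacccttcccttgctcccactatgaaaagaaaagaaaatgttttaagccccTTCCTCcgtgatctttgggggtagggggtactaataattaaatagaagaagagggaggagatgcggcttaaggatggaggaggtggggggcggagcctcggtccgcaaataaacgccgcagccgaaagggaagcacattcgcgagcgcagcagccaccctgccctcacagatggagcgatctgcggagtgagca

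None of these 4 windows holds AGGTCA, the core of the RevErb element, on either strand, nor the AP-1 motif TGANTCA or the C/EBP motif TTGCNNAA. Over the 386 RefSeq promoters of genes assigned a site, AGGTCA was in 42 (10.9%), against 14% of 32851 promoters, and TAGGTCA, which contains it, in 2 (0.518%) against 2.23%. GAGGAA was in 87 (22.5%) against 23.3%. Both strands were searched, and 280 of 349 RefSeq symbols had an entry. These shares describe promoters and not the bound sites themselves.

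Binding of both proteins at the 385 sites was close in its median to that at all common peaks and ranged widely. On the scale of log2 tags per 10000000, the median site read 5.46 for RevErbalpha, 5.75 for RevErbbeta and 1.15 for BirA, against 5.45, 5.68 and 1.10 over all common peaks. The mean of both proteins ran from 3.47 to 9.51. RevErbbeta was higher at 266 of 385 sites, by a median of 0.30, and this difference was 0.98 with only the 3 runs over 3000000 tags and 0.055 without RevErbbeta run 2. Single runs therefore set its size. Across sites, which share libraries, RevErbalpha and RevErbbeta values correlated at 0.74 (Pearson) and 0.65 (Spearman), as a description.

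Among the 10 most strongly bound sites were the strongest of all common peaks and sites of genes of very different roles. The site of Slc37a2, a sugar phosphate transporter gene of macrophages (chromosome 9, 37043675 to 37043831, 19570 bp downstream of the start), read 7.65, 9.69 and 9.78 for RevErbalpha, 10.53, 9.51 and 9.91 for RevErbbeta and 0.44 for BirA. The site of Arhgap25, a GTPase-activating protein of blood cells (chromosome 6, 87449944 to 87450100), read 7.34, 9.11 and 9.52, then 10.42, 8.53 and 10.07, and 1.48 in BirA. All 6 runs lay far above BirA at both sites, and RevErbalpha run 1, the deep one, was the lowest. It was the lowest of the 6 runs at all 10 of these sites. The next were assigned to Zfp236, a zinc finger gene, Senp6, a SUMO protease, Hnrnpl, an RNA-binding protein, and Anxa5, annexin A5, with mean values of 8.81, 8.71, 8.63 and 8.58. Then came Prkcd, protein kinase C delta (8.535), Arid3a, a DNA-binding protein (8.46), Clspn, a replication checkpoint protein (8.24), and Cx3cr1, the fractalkine receptor (8.20). The Cx3cr1 site (chromosome 9, 119967948 to 119968104) lies 9374 bp downstream of its start and read 6.83, 8.27 and 8.09 for RevErbalpha and 9, 8.18 and 8.83 for RevErbbeta.

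**Figure D1:**
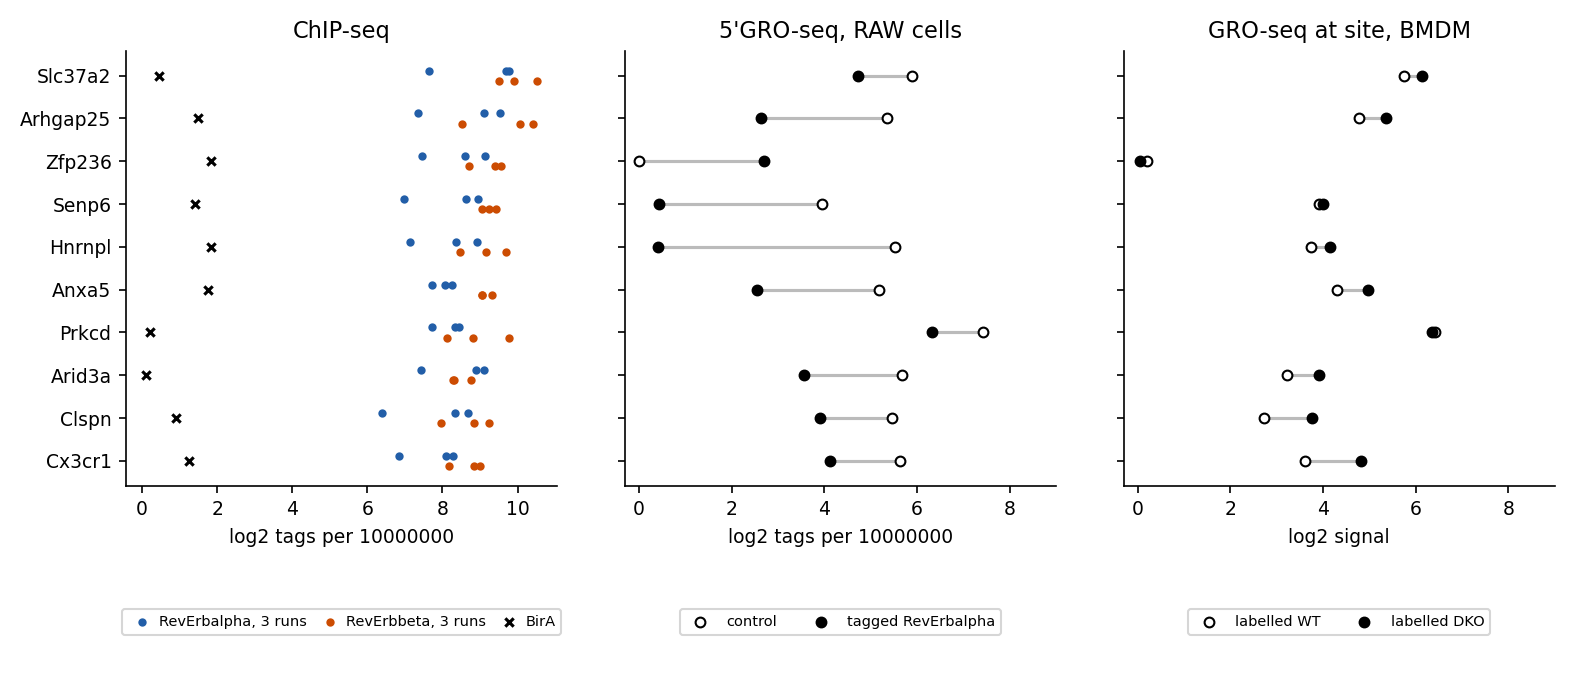
The 10 most strongly bound genic enhancer sites within 30 kb, by assigned gene. Left, ChIP-seq in log2 tags per 10000000, with 1 point per run; middle, 5'GRO-seq in RAW cells on the same scale; right, GRO-seq log2 signal at the site in bone marrow derived macrophages (BMDM), with 1 library per point. Every RevErb run lies above BirA, 9 of the 10 sites are lower with tagged RevErbalpha, and Zfp236 is the exception.

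Tagged RevErbalpha went with lower 5'GRO-seq signal at most of these sites. The median log2 difference, tagged minus control, was -0.35 (quartiles -1.03 and 0.20), against -0.23 over all common peaks. It was below 0 at 259 sites (67.3%), against 62.6% of all common peaks. Signal was lower by 1 or more at 101 of 385 sites (26.2%), where 20% of all common peaks were, and higher by 1 or more at 22 (5.71%), where 4.92% were. Centred on the median of all common peaks, 85 sites were lower and 34 higher, with a median of -0.12. The share lower among the sites counted was 82.1% as deposited and 71.4% after centring, against 80.3% and 66.7% for all common peaks. Of the 160 sites at or above the median signal of all common peaks, 19 (11.9%) were lower. The share lower among all common peaks of that signal was not counted, so 11.9% has no like value beside it. The control library was deeper by tag total, and both were scaled to 10000000 tags by the authors. With 10 added to each value before the logarithm, 68 sites were lower and 5 higher. Of the 101 lower sites, 90 held 20 or more tags in the control library, but the rule itself favours sites that are high there. The median of all 385 sites held about 90.3 tags in that library and 25 in the tagged one. Counting error in the shallower tagged library is therefore not covered by that count.

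Of the 10 strongest sites, 9 were lower by 1 or more as deposited. No such count was made for the most strongly bound of all common peaks. The sites of Slc37a2 (-1.18) and Prkcd (-1.09) lay close to the limit. Centred on the median of all common peaks, -0.23, neither would pass it. With 10 added before the logarithm, the Slc37a2 site read -0.96. The site of Hnrnpl read 5.53 in control cells and 0.42 with tagged RevErbalpha, about 85.3 tags and 0.24. The Arhgap25 site read 5.35 and 2.63, the Anxa5 site at 6853 bp 5.19 and 2.54, and the Senp6 site 3.96 and 0.44. These 4 sites lost most of their signal. The Arid3a site read 5.68 and 3.57, the Clspn site 5.47 and 3.90, and the Cx3cr1 site 5.63 and 4.12. The Slc37a2 site, the most strongly bound, fell by 1.18 from 5.90 to 4.72, and the Prkcd site, with the most signal of the 10, read 7.42 and 6.33. The Zfp236 site stood apart, with 0.01 in control cells and 2.71 with tagged RevErbalpha, or about 4.0 tags.

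**Figure D2:**
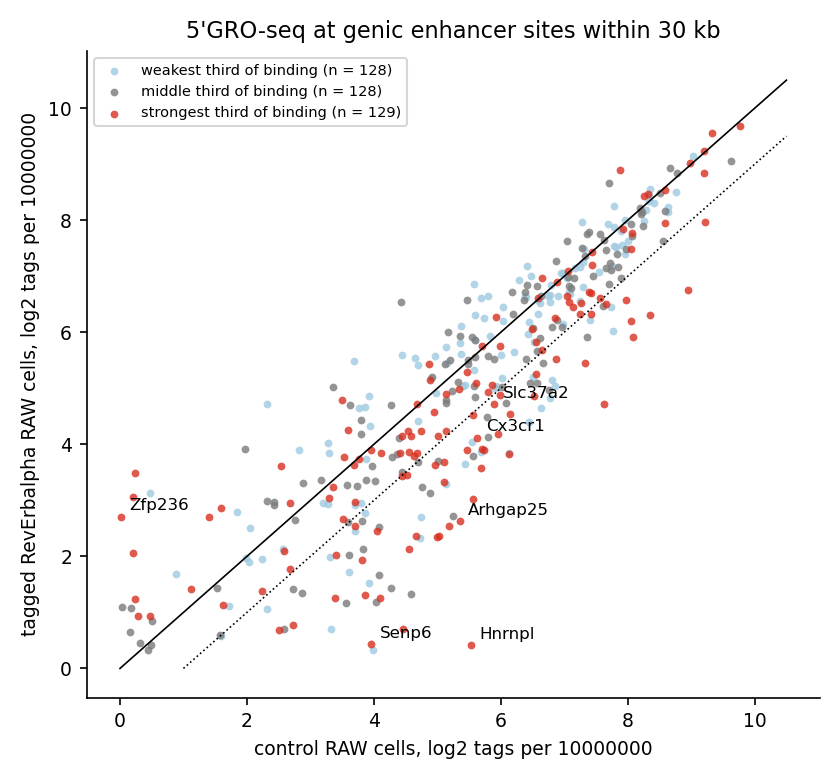
5'GRO-seq signal at the 385 sites in RAW cells with tagged RevErbalpha against control RAW cells, both in log2 tags per 10000000 with 1 library each. Colours give the group of binding, the solid line is equality and the dotted line a difference of -1, at or below which 101 sites lie.

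The difference was larger at strongly bound sites. Sites were ranked by the mean binding of both proteins and split into the 128 weakest (up to 5.22), the 128 middle and the 129 strongest (from 5.905 upwards). The median difference was -0.14, -0.31 and -0.69, and 25 (19.5%), 28 (21.9%) and 48 (37.2%) sites were lower by 1 or more. With 10 added before the logarithm, the strongest and weakest groups read -0.50 and -0.10. The Spearman correlation of binding with the difference across the 385 sites was -0.24, as a description across sites that share libraries. Over all common peaks it was also -0.24, at genic sites beyond 30 kb -0.18 and at intergenic sites within 30 kb -0.34. The pattern was thus not particular to these 385 sites. Control signal also differed between these groups, with a median of 6.03 at the weakest and 5.35 at the strongest sites, so the groups were also compared at like control signal, a split added after the data were seen. Among the 128 sites of middle control signal, 22 of 40 strongly bound sites (55%) were lower by 1 or more, against 9 of 47 weakly bound ones (19.1%), with medians of -1.14 and -0.06. Among the 129 of high control signal the counts were 11 of 39 (28.2%) and 7 of 47 (14.9%), and the medians -0.61 and -0.24. Among the 128 of low control signal they were 15 of 50 (30%) and 9 of 34 (26.5%), with -0.47 and -0.14. The order held in all 3 groups of control signal, and the shares lay closest at low signal.

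**Figure D3:**
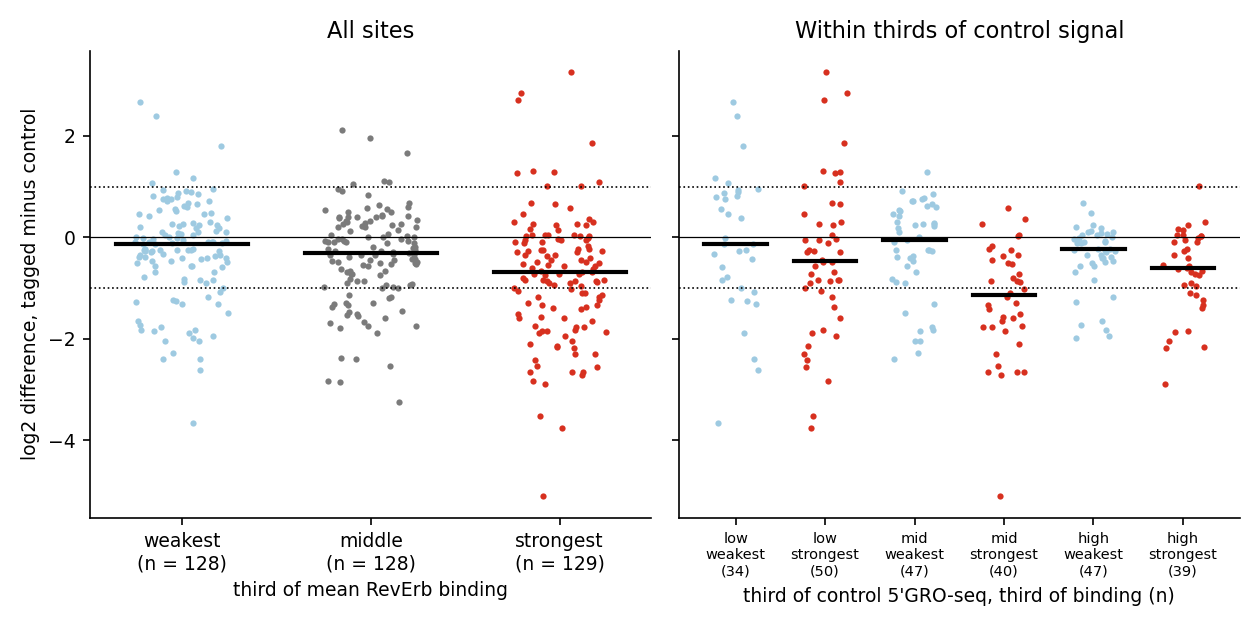
5'GRO-seq log2 difference, tagged RevErbalpha minus control, for sites grouped by mean RevErb binding (left) and, within groups of control signal, for the weakest and strongest binding (right). Points are sites, bars are medians and dotted lines mark -1 and 1; the strongly bound sites of middle control signal have the lowest median, -1.14.

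Distance and side showed a weaker pattern. The median difference was -0.52 at the 87 sites within 1 to 5 kb, -0.25 at 96 sites within 5 to 10 kb, -0.365 at 126 sites within 10 to 20 kb and -0.215 at 76 sites within 20 to 30 kb. There was no steady order with distance. The share lower by 1 or more was 28.7%, 26%, 30.2% and 17.1%. Downstream sites had a median of -0.37 and upstream sites -0.255. Among the strongly bound sites, 14 of 26 upstream ones (53.8%) and 34 of 103 downstream ones (33%) were lower by 1 or more. Among the weakly bound sites the order was the reverse, with 1 of 34 upstream (2.94%) and 24 of 94 downstream.

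Sites with more signal carry less counting error. Among the 160 sites whose mean of the 2 libraries was at or above the median of all common peaks (5.905), the largest falls were at 2 sites of 6430531B16Rik, which read 7.62 and 8.95 in control cells and 4.72 and 6.76 with tagged RevErbalpha. Next were 2 sites of Tbxas1, thromboxane synthase, which went from 8.08 to 5.92 and from 8.35 to 6.30. These 4 sites held their fall with 10 added before the logarithm, at -2.54, -2.10, -2.01 and -1.93. Sites of Micall2, Fam63a, E230029C05Rik and Slc26a9 followed, with differences of -1.87, -1.84, -1.82 and -1.74. Then came Cd83, a surface protein of activated antigen-presenting cells (-1.65), and Rhbdf2, which carries the protease Adam17 to the cell surface (-1.45). The largest rises were at sites of Mcph1 (5.57 to 6.86), Axl, a receptor for apoptotic cells (5.47 to 6.57), and Tmbim1 (7.88 to 8.89). Those of Ptpro (0.96) and Nod2, a sensor of bacterial cell wall (0.92), did not reach 1. The control values of Mcph1, Axl and Nod2 lay below 5.905, so these sites entered through the library in which they were high. The same holds for some falls, which entered through the control library. Tagged values lay below 5.905 at the first 6430531B16Rik site (4.72), Micall2 (5.45), E230029C05Rik (5.04) and Cd83 (5.15). Of the 22 sites higher by 1 or more, 19 were among the 128 of lowest control signal and 12 held under 10 tags in control cells.

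Genes with several of these sites gave a further look within a gene. Of the 350 genes, 318 had 1 site, 29 had 2 and 3 had 3. In 20 of the 32 genes with several sites all differences were below 0. In 3 all were above 0 and in 9 they were mixed. Sites of 1 gene can share its transcription and are not independent. Taken singly, 67.3% of the sites described here and 62.6% of all common peaks were below 0. These counts therefore do not by themselves show agreement within a gene. No such count, nor one of every site lower by 1 or more, was made for all genes with several common peaks. At Dot1l, the histone H3K79 methyltransferase gene, the sites at -3588, 3688 and 8520 bp read 5.95, 3.56 and 4.88 in control cells and 4.19, 1.17 and 3.13 with tagged RevErbalpha. All 3 were lower by more than 1. At Ubtd1 the differences were -1.18, -0.73 and -1.37. At Anxa5 the site at 6853 bp had -2.65, while its neighbour at 8069 bp, also strongly bound (7.71), had -0.25 and the site at 26457 bp -0.84. In 7 genes every site was lower by 1 or more, among them Ptk2b, a focal adhesion kinase relative, Tm6sf1 and Slc7a8, an amino acid transporter. Both Nod2 sites had differences above 0 (0.54 and 0.92).

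Of all 1220 genes with a common peak, 28.9% had one of these sites, and the listed pathways are set beside that share. The lists were drawn up with earlier results of these data known. Of 28 macrophage transcription factors, 14 had a common peak but none had one of these 385 sites, and of 24 clock genes 7 had a common peak and only Cry1, a repressor of the clock, had a site here. The Cry1 site, 23132 bp downstream, was strongly bound (7.11 for RevErbalpha and 7.98 for RevErbbeta) but read 0.21 in control cells and 2.06 with tagged RevErbalpha, or about 0.3 and 2.3 tags. Of 28 lipid genes 7 had a common peak and 4 had sites here, 5 in all, with every difference below 0 and a median of -0.74, none past -1. They were Rxra, the partner of lipid-sensing receptors (6.97 to 6.10), Lrp1, a lipoprotein receptor (7.26 to 6.52), Abca1, a cholesterol exporter (4.29 to 3.77), and Cd36, a scavenger receptor (5.01 to 4.14 and 4.69 to 4.42). Of 32 genes of the cytokine and receptor list 11 had a common peak and 3 had a site here. Cx3cr1 was lower by 1.51, while Il6ra, the interleukin 6 receptor, had 0.15 and Tnf had 0.27. Of 10 proteases with a common peak, 2 had a site: Adam17 had -0.29 and Plaur, the urokinase receptor, -0.79. Of 9 pattern recognition genes with a common peak, 2 had sites: Tlr4, the endotoxin receptor, had -0.86 beside the 2 sites of Nod2. Of 6 phagocytosis genes with a common peak, 2 had a site: Axl had 1.10 and Tyrobp, an adaptor of myeloid receptors, -0.26. Only 3 cofactor genes and 1 housekeeping gene of the lists had a common peak, and none had a site here.

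The next comparison set nascent transcription at the same sites in the library labelled DKO against that labelled WT. GRO-seq at the 385 sites differed little in its median between these libraries. The median site read 4.05 in WT and 4.15 in DKO, and the median difference, DKO minus WT, was 0.045 (quartiles -0.185 and 0.315), against 0.03 over all common peaks. Signal was higher by 0.5 or more at 47 sites (12.2%), where 13.5% of all common peaks were, and lower by 0.5 or more at 38 (9.87%), where 10.7% were. Both shares were close to those of all common peaks. Centred on the median of all common peaks, 40 sites were higher and 41 lower, so the small excess of higher sites was not kept. At a difference of 1 the counts were 9 and 9, and with 10 added before the logarithm 10 and 4 sites passed 0.5. By binding, the median was 0.04, 0.01 and 0.07 from the weakest to the strongest group.

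The sites named next are the largest differences by choice, among the 228 with a mean of both libraries at or above the median of all common peaks. Some, such as those of Cx3cr1, Ppt1 and Tle3, lay below that median in 1 of the libraries. The Cx3cr1 site read 3.62 in WT and 4.815 in DKO, a difference of 1.195, the largest of the 228 (median 3.70). Sites of Cyfip1, of the WAVE actin complex (4.07 and 5.125), and Ppt1, a lysosomal thioesterase (3.385 and 4.395), followed. A site of Tatdn2 had 0.875, and sites of Slc7a8 and Fnip2, a folliculin partner, 0.735 each. Next were Anxa5 (0.675), 4831426I19Rik (0.635), Arhgap25 (0.59) and Wdr1, an actin disassembly factor (0.575). In the other direction were Tle3, a Groucho corepressor (-1.055), 6530418L21Rik (-0.71), Ehd4 (-0.685), Parvb (-0.615) and Plekhg3 (-0.575). At sites with less signal, Clspn read 2.735 and 3.755 and Arid3a 3.22 and 3.92.

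Signal at a genic site moved in part with that of its gene. Across the 385 sites, WT signal at the site and over the assigned gene had a Spearman correlation of 0.42. It was 0.50 at the 293 downstream sites and 0.16 at the 92 upstream ones, and 0.16 at the 264 intergenic sites within 30 kb. Control 5'GRO-seq at the site, measured in RAW cells, had 0.02 with the WT gene value. Differences between genotypes at site and gene had 0.33 at downstream and 0.04 at upstream sites. These values describe sites in the same 2 genotypes, and how much site signal came from the gene's own transcript was not tested.

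At the level of genes, few genes with such a site differed, in shares close to those of all genes with a common peak. Gene values are log2 signal of the whole gene, with no scaling by length stated, so levels are not compared between genes. Of 353 genes, 8 (2.27%) rose by 0.5 or more, with no overlap of the runs, where 1.97% of all genes with a common peak were. Only 3 (0.85%) were lower by the same rule, where 0.738% were. The median difference was 0.06, against 0.035 over all 1220 genes. The SD of the difference between runs, over these genes, was 0.33 in WT and 0.30 in DKO. Runs of the same genotype lay 0.5 or more apart in 36 of the 353 genes (10.2%) for WT and in 27 (7.65%) for DKO, so differences of this size also occurred within a genotype.

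Cx3cr1 had the largest difference, 1.645, with 8.19 and 9.16 for WT and 10.24 and 10.4 for DKO. Its WT runs lay far apart: dropping the first gave 1.16 and dropping the second 2.13. Arhgap25 read 12.35 and 11.77 in WT and 12.71 and 12.74 in DKO, a difference of 0.665, which was 0.375 without WT run 2. Slc7a8 read 10.59 and 10.93 against 11.34 and 11.19, a difference of 0.505, which was 0.335 without WT run 1 and 0.43 without DKO run 1. In all 3 the runs did not overlap. The other 5 genes lay below the lower quartile of gene signal (8.43). Tspan33, a tetraspanin, read 4.79 and 5.14 against 6 and 6.76, and Cd200r3, a myeloid receptor, 5.83 and 5.42 against 6.66 and 6.33. E230029C05Rik had a difference of 0.83, Egr3, an immediate early transcription factor, 0.745 and Slc12a8 0.605. Slc12a8 had 0.32 without DKO run 1. The 3 lower genes also lay below that quartile: 9330111N05Rik (-0.79), Acpp, an acid phosphatase (-0.775), and Cspg4, a proteoglycan of pericytes (-0.51), which had -0.48 without DKO run 1 and -0.18 without WT run 2. Slc37a2, whose site was the most strongly bound, read 11.73 and 11.58 in WT and 11.98 and 12.21 in DKO, which was apart but at 0.44 short of 0.5.

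**Figure D4:**
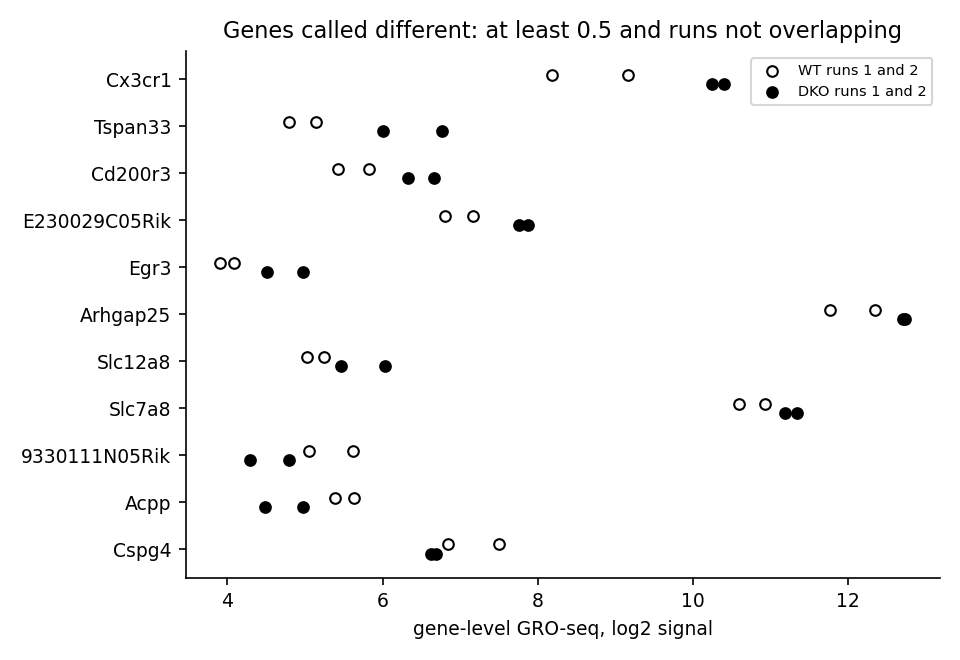
Gene-level GRO-seq, log2 signal per run, for the 8 genes higher and the 3 genes lower in the library labelled DKO. Open points are WT runs and filled points DKO runs, and the runs of the genotypes do not overlap in any of the 11 genes.

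Small differences leaned upwards. Without regard to size, both DKO runs lay above both WT runs in 76 of 353 genes (21.5%) and below in 23 (6.52%), where 18.4% and 10% of all genes with a common peak did so. The share above among these was 76.8%. Centring on the median of all 1220 genes, 0.035, left 58 above and 39 below, a share of 59.8%, against 64.7% and 48.2% for all genes before and after centring. The lean was thus set in part by the scaling between libraries. Among genes of the 129 most strongly bound sites, 37 of 125 (29.6%) were above and 5 (4%) below. Among those of the 128 weakest, 26 of 127 (20.5%) were above and 10 (7.87%) below. These counts by binding are as deposited. They were not repeated after centring, nor made for genes of all common peaks.

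The 2 comparisons share no library and can be set side by side at each site. Of the 101 sites lower by 1 or more with tagged RevErbalpha, 17 (16.8%) were higher by 0.5 or more in the library labelled DKO and 9 (8.91%) lower. Of the other 284 sites, 30 (10.6%) were higher and 29 (10.2%) lower. These include the 22 sites higher by 1 or more with tagged RevErbalpha, of which the library labelled DKO was higher at 6 (27.3%) and lower at 4, with a median difference of 0.31. The 17 sites were 4.42% of the 385, where 3.56% of all common peaks met both rules. Of the 309 common peaks lower by 1 or more with tagged RevErbalpha, 55 were also higher by 0.5 or more. That share was close to the 17 of 101 here. Of the 17 sites, 11 were among the 129 most strongly bound. In order of binding the first were at Arhgap25, Anxa5, Arid3a, Clspn, Cx3cr1, Sfn, Slc7a8, Ccdc12, Stil and Cdcp1. Only Cx3cr1, Arhgap25 and Slc7a8 of these 10 also passed the rule at the gene. Clspn (-0.035) and Sfn, an adaptor protein (0.025), read almost alike at the gene in both genotypes while their sites differed by 1.02 and 0.935. Over all 385 sites the 2 differences had a Spearman correlation of -0.03. Across all sites the differences thus showed no common order.

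**Figure D5:**
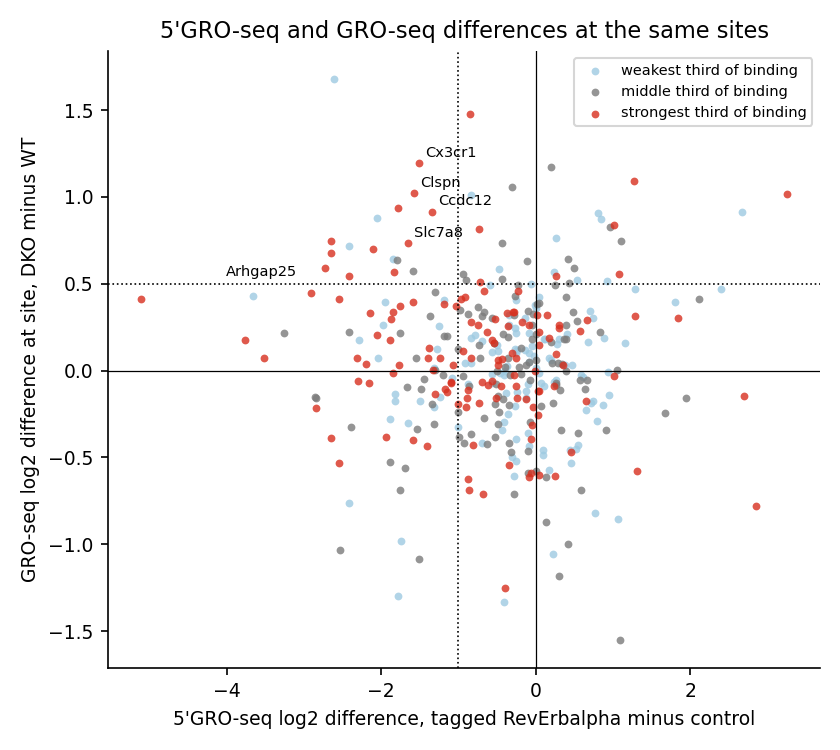
GRO-seq log2 difference at the site, DKO minus WT, against the 5'GRO-seq log2 difference, tagged RevErbalpha minus control, for the 385 sites coloured by binding. Dotted lines mark -1 and 0.5; the 17 sites to the upper left of both include Cx3cr1, Clspn, Ccdc12, Slc7a8 and Arhgap25.

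Values of like classes are given side by side, and no test of their differences was made with 1 labelled sample per condition. Genic enhancer sites beyond 30 kb had a median 5'GRO-seq difference of -0.31, with 25.2% lower by 1 or more, and intergenic enhancer sites within 30 kb -0.205, with 20.1%. Median control signal was 5.61 at the 385 sites, 5.465 at genic sites beyond 30 kb and 6.43 at intergenic sites within 30 kb. In the library labelled DKO, 12.2% of the 385 sites, 15.2% of genic sites beyond 30 kb and 18.9% of intergenic sites within 30 kb were higher by 0.5 or more. Genes with both DKO runs above made up 21.5%, 15.7% and 22.6% of the genes in these 3 classes, and with both below 6.52%, 15% and 7.69%.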

How the data were processed

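ChIP-seq, GRO-seq and 5'GRO-seq values of 7 of 15 labelled samples came from the authors' summary table of 1544 common peaks. The submitters' processing notes list the build mm9 and the tools Bowtie 0.12.7 and HOMER. How peaks were called is not given in the sources used here. All values are deposited log2 values: per the file headers, ChIP-seq is in tags per 10000000 within 157 bp, and 5'GRO-seq likewise within 500 bp, while no scaling is stated there for GRO-seq at peaks. Tags were estimated by taking deposited values as log2 of the scaled tags plus 1; they were not treated as counts. Runs of 1 sample were averaged on the log2 scale. Recomputed means and differences lay within 0.01 of the authors' columns.

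The rule for sites used class and distance only. Gene IDs were matched to RefSeq symbols (384 of 385; GRCm38.p6, names and promoters only), 2 names turned into dates were replaced, and at 19 sites the gene-level value carries another transcript ID than the nearest start. A site was counted at a difference of 1 (5'GRO-seq) or 0.5 (GRO-seq), and a gene at 0.5 with runs that did not overlap. No p-values are given, since each group is 1 sample. Named were the 10 most strongly bound sites, the 10 and 5 largest differences each way at or above the median signal, the called genes, genes of the lists, genes with 3 sites, sites that met both rules, and those at the limit. Other names were chosen after their values were seen. Sites, lists and rules were chosen with earlier results of these data known. Alternatives were the pseudocount, size limit, signal filter, distance limit, 1 site per gene, centring and leaving out runs. Motifs in peaks were not run. Python 3.11.15, pandas 2.3.3 and scipy 1.17.1 were used.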

Additional observations from a re-analysis of the deposited data

How the results depend on the processing

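The values of 5'GRO-seq and of GRO-seq at sites are single per condition, so counting and culture-to-culture error are not covered there. ChIP-seq and gene-level GRO-seq have several runs, but whether their spread includes separate cultures is not stated. Few tags limit the sites of low signal and the shallow ChIP-seq runs most. A median that moved by under 0.1 and a count within 1.5 times were taken as unmoved, which held for 61 of 108 values under the alternatives. No median or single value changed sign, but the balance of GRO-seq at sites went from 47 higher and 38 lower to 40 and 41 after centring. No paired analysis was made, since each genotype is 1 sample in the labels. The numbers 1 and 2 in the column names were read as runs of it. Whether they mark repeat runs, separate cultures or pairs is not stated. The motif search in peaks was not run, for want of an mm9 genome. The cause of the changes below was not tested, beyond fewer sites entering under a filter.

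For 5'GRO-seq, 10 added before the logarithm gave 5 higher sites and a median of -0.24. A limit of 0.5 gave 162 lower and 55 higher. Only sites at or above the median signal gave 19 lower (11.9%) and 3 higher with a median of -0.24, a distance limit of 15 kb 11 higher, and centring 34 higher with a median of -0.12. In the strongly bound group the median was -0.50 with 10 added, and -0.47 and -1.14 at low and middle control signal. For GRO-seq at sites, lower and higher counts were 4 and 10 with 10 added, 9 and 9 at a limit of 1, and 7 and 15 at or above the median signal. Higher sites numbered 30 within 15 kb and 75 within 60 kb.

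Leaving out 1 run moved the RevErbalpha median between 5.36 and 5.81, the RevErbbeta median between 5.52 and 6.03, and their difference between 0.055 and 0.56. With only runs over 3000000 tags these were 5.01, 6.03 and 0.98. Leaving out 1 GRO-seq run gave 12 to 21 higher and 3 to 10 lower genes, as the rule on runs is then easier to meet. A limit of 1 gave 2 and 0 genes, and the filter at the lower quartile of level 3 and 0. Genes with both DKO runs below numbered 12 within 15 kb, 40 within 60 kb and 39 after centring.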

Other observations

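Some of the sites were bound but almost silent in control cells. Under 1 tag of 5'GRO-seq was seen in control RAW cells at 15 of the 385 sites (3.9%), against 86 of all common peaks (5.57%). Of the 15, 7 were among the 129 most strongly bound, 7 in the middle group and 1 among the 128 weakest. With tagged RevErbalpha 10 of the 15 were also under 1 tag, and the most any held was 7.4 tags, at a site of Gipc2. The group includes the sites of Zfp236, Cry1 and Arid3b, which read 0.01, 0.21 and 0.21 in control cells.

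The reverse pattern, 10 or more tags in control cells and under 1 with tagged RevErbalpha, was seen at 9 sites: those of Senp6, Hnrnpl, Vapa, Prkrir, Tm6sf1, Dot1l, Fank1, Glt25d1 and Ptprs, chosen after their values were seen. Binding at them ran from 4.865 at Ptprs to 8.71 at Senp6. The tagged library was the shallower, with 7238710 tags against 18708148, so under 1 tag was easier to reach in it. In all, 26 of the 385 sites were under 1 tag there, against 15 in control cells. How many of all common peaks show this pattern was not counted. At Ptprs, GRO-seq read 1.565 in the library labelled WT and 3.245 in that labelled DKO, the largest rise of the 385 sites, which was 0.63 with 10 added before the logarithm.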
